A study of Mus musculus with 11 samples.

Results

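Mouse embryonic retinas that had lost Six3 were set directly against retinas that had lost Six6, gene by gene, at E13.5. The comparison used every raw count column named for either single mutant, which gave 3 Six3KO libraries and 2 Six6KO libraries, 5 of the 11 libraries in the table. The remaining columns, 3 wild-type (WT) and 3 double mutant (DKO) libraries, entered the fit to estimate the spread and serve as reference levels. Six3KO embryos were Six3F/F; CAGGCre-ERTM; Six6+/+, and Six6KO embryos were Six3F/F; Six6-/- without Cre. WT embryos were Six3F/F; Six6+/+ without Cre, and DKO embryos were Six3F/F; CAGGCre-ERTM; Six6-/-. Thus all 4 groups carried the floxed Six3 allele, and all came from NMRI dams that were Six3F/F; Six6+/- and were given tamoxifen (0.15 mL, 20 mg/mL) at both E10.5 and E11.5. The CAGG promoter is active in most tissues, so Cre was not confined to the retina, and deletion depended on tamoxifen reaching the cells. Cre was present in Six3KO and absent from Six6KO, so its presence and the identity of the lost gene cannot be told apart in this contrast. The retinas were dissected in pairs, and the study lists the libraries of a group as biological replicates. One further Six6KO sample had been dropped by the study for its read duplication and was not analysed here.

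Six3 and Six6 are closely related homeodomain transcription factors of the sine oculis family, which carry a further conserved domain that binds partner proteins. Both are expressed in the optic vesicle and in the multipotent progenitors of the neural retina, where they are known to act with Groucho corepressors and to repress Wnt ligands and cell cycle inhibitors. Six3 is known for its early role in forming the forebrain and the neural retina, and Six6 for its role in expanding the progenitor pool.

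The libraries were made from total RNA after ribosomal RNA removal. Six3KO libraries held 9786661 to 16403191 reads assigned to genes, and Six6KO libraries 8867708 and 9166054. WT libraries held 7807744 to 12505379 and DKO libraries 11965016 to 12659540. Levels below are depth-scaled counts (CPM) after TMM scaling, which corrects the library totals for differences in composition, and each difference is log2 of Six3KO over Six6KO with its standard error (SE). The libraries of a group were far from alike. By rank and by large differences the closest of the 10 pairs was a between-group pair, Six3KO rh006 and Six6KO rh007, with a Spearman correlation across genes of 0.983 and 538 genes more than 2 fold apart. By the median absolute log2 ratio, the closest was Six3KO rh006 with rh012, at 0.125 against 0.166. Within groups, that number was 1160 for the Six6KO pair and 940 to 2077 for the Six3KO pairs. Six3KO rh026 and Six6KO rh020 both lay to one side of the first principal component, which held 45.9% of the variance, at 73.2 and 62.7, against 7.11 and -30.6 for the other Six3KO libraries and 24.7 for Six6KO rh007. For each list of retinal, signalling and cell state genes, the lowest and highest median with 1 of the 5 libraries left out is therefore given. The same is given for lens and skeletal muscle markers. For the remaining markers of other tissues, counts of members by direction are given.

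The targeted genes were read first, as a check of the labels. Six3 (chromosome 17, 85613608 to 85629302, plus strand; positions are GRCm38) was at 73.8, 75.9 and 30.3 CPM in the 3 Six3KO libraries rh006, rh012 and rh026. It stood at 307 and 142 CPM in the Six6KO libraries rh007 and rh020, and at 164 to 299 CPM in WT. The groups did not overlap, and Six3 was lower in each Six3KO library than in either Six6KO library. The difference was -1.90 ± 0.46 (SE; 95% interval -2.94 to -0.87). It did not pass the test across all genes, edgeR's quasi-likelihood test with Benjamini-Hochberg adjustment (adjusted p = 1). Over the 20 alternative settings the difference lay between -2.33 and -1.24, with the adjusted p between 0.103 and 1.

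Six6 (chromosome 12, 72939892 to 72944899, plus strand) gave the opposite pattern. Its level was 335, 339 and 168 CPM in Six3KO, 131 and 76.8 CPM in Six6KO, and 225 to 340 CPM in WT. The difference was 1.43 ± 0.40 (SE; 95% interval 0.52 to 2.34), again with no overlap and with an adjusted p of 1 in edgeR's quasi-likelihood test. Reads assigned to Six6 thus persisted in both Six6-/- libraries, and the exons they came from were not analysed here. Exons of 4930447C04Rik lie opposite those of Six6, and exons of Six3os1 opposite those of Six3. Without a stated strand setting, reads of such partners cannot be told apart.

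Much of the spread in both genes was shared, and the ratio of one to the other within a library was tighter than either level. Relative to the WT mean, log2 of Six3 over Six6 was -1.86, -1.84 and -2.16 in Six3KO and 1.54 and 1.21 in Six6KO. The WT libraries lay between -0.14 and 0.13 and the DKO libraries between 0.29 and 0.41. The 2 single mutants therefore stood on opposite sides of both other groups, with mean ratios 3.33 apart on the log2 scale. This ratio was chosen after the levels had been seen and is given as a description.

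Set against the mean of 24 other progenitor genes in the same library, Six3 was at -1.63, -1.53 and -2.41 log2 units from WT in Six3KO and at 0.31 and -0.32 in Six6KO. Six6 by the same measure was at 0.24, 0.31 and -0.25 in Six3KO and at -1.23 and -1.53 in Six6KO. In all 5 libraries the gene that had not been targeted lay closer to the WT mean than the targeted one, which was below it.

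Six3os1, a long noncoding RNA transcribed from the other strand at the Six3 locus (chromosome 17, 85600651 to 85618398, minus strand), stood higher in Six3KO. Its level was 1216, 1449 and 819 CPM there, 704 and 429 CPM in Six6KO and 396 to 713 CPM in WT. The groups did not overlap, and the difference was 1.04 ± 0.32 (SE; 95% interval 0.32 to 1.75), with an adjusted p of 1 in edgeR's quasi-likelihood test. In the DKO libraries Six3os1 stood at 1221 to 1521 CPM.

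**Figure D1:**
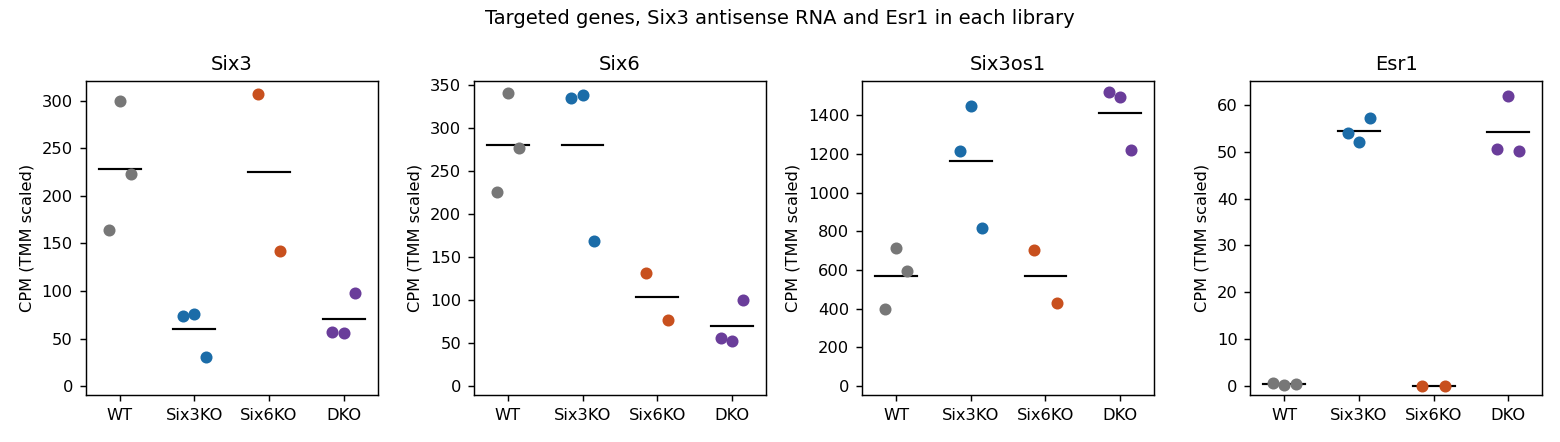
Level of Six3, Six6, Six3os1 and Esr1 in CPM (TMM scaled, linear axes from 0) in each library of the 4 groups, with a line at the group mean. Six3KO libraries lie below both Six6KO libraries for Six3 and above both for Six6, Six3os1 and Esr1.

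Across all genes, 1 of 13292 tested genes passed the adjusted p threshold of 0.05 (0.00752%). That gene, Esr1, was higher in Six3KO (0.00752% of genes called higher), and none was called lower (0%) by edgeR's quasi-likelihood test. DESeq2 called 2 genes, Esr1 and Hist1h2al. Before adjustment, 487 genes (3.66%) had p under 0.05, of which 221 (1.66%) were higher and 266 (2%) lower in Six3KO. With size factors from relative log expression in place of TMM, this split was 281 higher and 214 lower, so the balance of directions moved with the scaling. Single libraries moved the count more: it was 260 without Six3KO rh012, 927 without Six3KO rh026 and 1735 without Six6KO rh007. The estimate was higher in Six3KO for 6406 genes (48.2%) and lower for 6886 (51.8%), with a median of -0.01. The libraries of the groups did not overlap for 2005 genes (15.1%), 889 of them higher (6.69%) and 1116 lower (8.4%).

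Esr1, which encodes estrogen receptor alpha, rose in Six3KO relative to Six6KO. It stood at 53.9, 52.0 and 57.1 CPM in Six3KO, at 0.116 CPM and 0 in Six6KO, at 0.347 to 0.625 CPM in WT and at 50.2 to 62.0 CPM in DKO. Every library with Cre was thus above 50 CPM and every library without it below 1 CPM. The Cre-ERTM fusion carries the ligand-binding part of the mouse estrogen receptor, and the counts do not tell its reads from those of the gene itself (chromosome 10, 4611593 to 5005614, plus strand). There were 1994 Esr1 reads in Six3KO and 1 in Six6KO, a depth-scaled ratio of 974 with a 95% counting interval of 175 to 38500. The fitted difference was 9.66 ± 0.40 (SE, adjusted p = 7.9e-06 in edgeR's quasi-likelihood test), and Esr1 was called under all 20 alternatives with an adjusted p between 6.4e-08 and 0.033.

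The width of the intervals sets what the absence of other calls can say. The 95% interval of the difference lay within 2 fold in both directions for 9629 genes (72.4%), and the median SE was 0.21. This share depended on the level: it was 0.73% of genes under 1 CPM, 13.3% of genes at 1 to 5 CPM, 60.8% at 5 to 20 CPM, 86.6% at 20 to 100 CPM and 89.9% above 100 CPM. Among well expressed genes a difference beyond 2 fold was therefore outside the interval for most. Of the genes under 1 CPM 5 had an unadjusted p under 0.05, as did 50 at 1 to 5 CPM, but for most genes under 5 CPM the interval did not exclude a difference of 2 fold. The estimate was beyond 2 fold for 435 genes, and for 185 of these the libraries did not overlap.

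**Figure D2:**
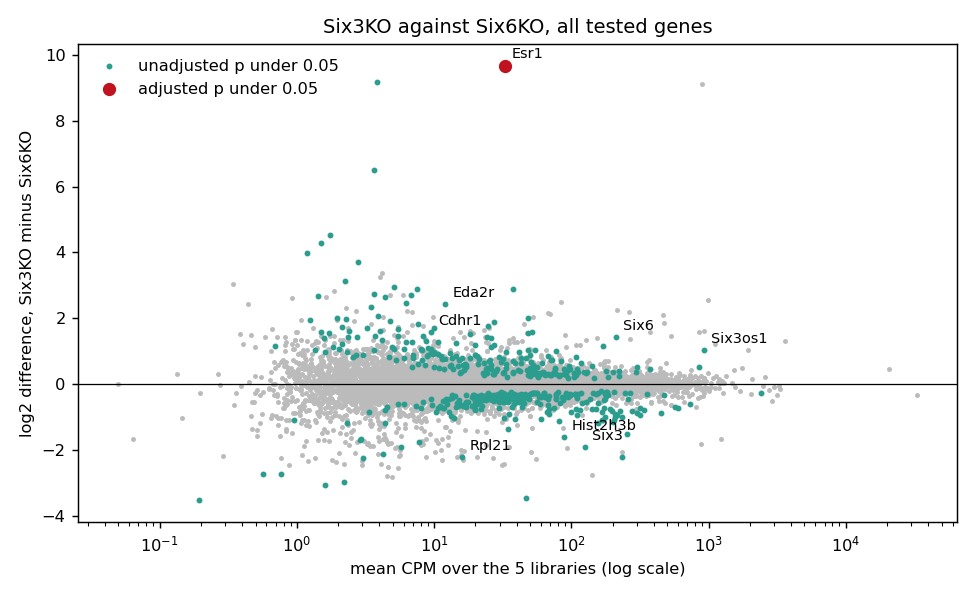
Difference between Six3KO and Six6KO (log2, vertical axis) against mean level over the 5 libraries (CPM, log-scaled horizontal axis) for every tested gene, with some named genes labelled. Estimates widen towards low levels, and Esr1 at 9.66 is the gene that passed the adjusted threshold.

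The genes closest to the threshold were taken as those with the smallest unadjusted p in each direction, a mean level over the 5 libraries of 5 CPM or more and no overlap between the groups. They were chosen for these values, so they are described and no result rests on them. Apart from Esr1, the genes that stood higher in Six3KO included Anks1b and Dlg2, which encode scaffold proteins of neurons, Dgki, a diacylglycerol kinase, and Unc5c, a netrin receptor of axon guidance. Anks1b stood at 17.3, 18.1 and 17.6 CPM in Six3KO and 9.86 and 9.41 CPM in Six6KO, with WT at 13.4 to 15.8 CPM. Each Six3KO library was above WT and each Six6KO library below it. Dgki stood at 11.6, 12.7 and 11.2 against 7.08 and 5.24 CPM, with WT at 9.37 to 10.1 CPM, the same order. Unc5c stood at 85.2, 84.4 and 86.3 against 61.0 and 40.3 CPM, with WT at 70.9 to 83.3 CPM. These 3 genes thus had the mutants on opposite sides of WT, and the spread in Unc5c lay mostly within Six6KO.

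Fam65b, a regulator of RhoA, and Synm, an intermediate filament protein, had the widest gaps. Fam65b was at 77.4, 95.9 and 39.4 CPM in Six3KO, at 29.9 and 17.0 CPM in Six6KO and at 15.7 to 33.0 CPM in WT. It was at 58.6 to 87.1 CPM in DKO, so the libraries with Cre and deleted Six3 lay above those without in both backgrounds. Synm was at 17.2, 50.3 and 36.6 against 8.01 and 12.2 CPM, with WT at 11.1 to 24.5 CPM, which overlaps Six3KO. The other genes were Eml6 (1.07 ± 0.25), Slc16a6 (1.12 ± 0.30) and Akap17b (0.51 ± 0.14), given as difference and SE.

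On the lower side stood Six3 itself, 3 histone genes and 6 others. Tecr, which completes the elongation cycle of very long chain fatty acids, was at 67.4, 74.4 and 67.1 CPM in Six3KO and 103 and 102 CPM in Six6KO, with WT at 62.8 to 83.3 CPM. Both Six6KO libraries were above WT, and the Six3KO libraries lay within it. Mvk, mevalonate kinase of the cholesterol pathway, was at 24.4, 23.9 and 21.7 against 36.0 and 29.96 CPM, with WT at 29.8 to 32.6 CPM. Here the Six3KO libraries were the ones below WT. Shmt1, a serine hydroxymethyltransferase, was at 33.2, 33.2 and 29.2 against 44.6 and 42.7 CPM, with WT at 38.2 to 38.9 CPM between them. B3galt6 (-0.66 ± 0.16) and Yif1b (-0.51 ± 0.13), a galactosyltransferase and a Golgi transport factor, completed the set apart from Rpl21 and the histone genes.

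Rpl21, a ribosomal protein gene with many near-identical copies, was at 50.8 CPM in Six6KO rh007 and at 9.52 CPM in Six6KO rh020. It was at 6.24 to 7.16 CPM in Six3KO and 5.96 to 9.04 CPM in the other groups, so its difference of -2.20 rested on 1 library. It passed the threshold when Six6KO rh020 was left out (-2.91, adjusted p = 0.012 in edgeR's quasi-likelihood test) and when rh020 and Six3KO rh026 were left out together (-3.00, adjusted p = 0.033). Without rh007 the difference was -0.52.

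**Figure D3:**
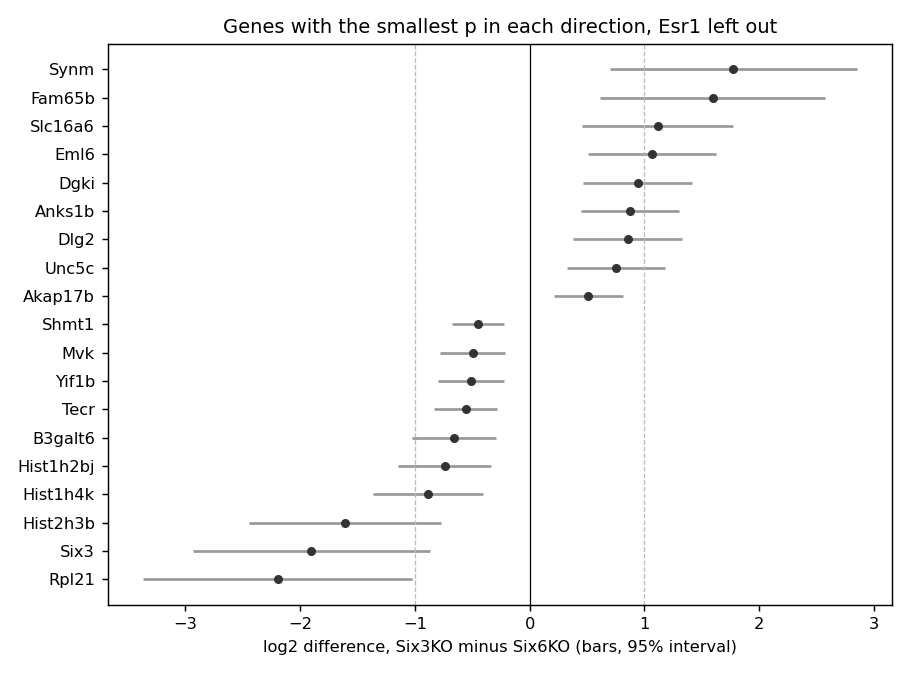
Difference (log2, horizontal axis) with its 95% interval for the 19 named genes with the smallest p in each direction, Esr1 left out. Intervals of Shmt1, Mvk, Yif1b and Tecr are narrow and lie within 2 fold (dashed lines), while those of Rpl21, Six3 and Synm reach past it.

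Genes were next taken by role, in 20 lists of retinal, signalling and cell state genes and 8 lists of markers of other tissues. No list member passed the adjusted threshold in edgeR's quasi-likelihood test or in DESeq2. Counts are to be read against the shares among all tested genes: 1.66% higher and 2% lower at p under 0.05, and 6.69% higher and 8.4% lower without overlap between the groups. The groups' positions are read from the mean log2 CPM of a list in each library, relative to WT.

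In the network that joins Six3, Six6 and related factors to Eya coactivators and Dach cofactors, 13 of 14 genes were tested. Of these, 5 were higher and 8 lower in Six3KO, and the 3 with unadjusted p under 0.05 were Six3, Six6 and Six3os1. The median was -0.04, and it ran from -0.21 without rh026 to -0.01 without rh012. Eya2 was at 99.2, 94.4 and 58.2 CPM in Six3KO and 108 and 63.0 CPM in Six6KO. Dach1 was at 270, 269 and 178 against 247 and 171 CPM. Both genes ran over the same range in the 2 groups, with the lower level in rh026 and rh020.

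Apart from Six3 and Six6, the retinal progenitor genes overlapped between the groups. Of 26 genes, 11 were higher and 15 lower, 1 in each direction had p under 0.05 (Six6 and Six3), and 14 had an interval within 2 fold. The median was -0.08, but the direction of the list turned with single libraries: it ran from -0.35 without rh020 (8 higher, 18 lower) to 0.32 without rh007 (20 higher, 6 lower), and was 0.14 without rh026. Rax, an eye field gene, was at 212, 225 and 98.8 CPM in Six3KO and 250 and 203 CPM in Six6KO, a difference of -0.34 (95% interval -1.01 to 0.33). Sox2 gave -0.13 (interval -0.96 to 0.70) and Lhx2 -0.22 (interval -0.77 to 0.33). The intervals of these 3 genes include 0, and that of Rax reaches 2 fold. Tighter intervals were found for Pax6 at 0.25 (-0.21 to 0.71), Mab21l1 at -0.11 (-0.40 to 0.19), Mab21l2 at 0.06 (-0.33 to 0.46) and Lin28b at 0.05 (-0.36 to 0.46). For these a difference beyond 2 fold lay outside the interval.

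Among genes reported as targets of Six3 or Six6, 12 of 14 were tested, and 4 were higher and 8 lower, with none at p under 0.05. The median was -0.15, and ran from -0.23 without rh006 to 0.29 without rh007. Wnt8b and Wnt1, the Wnt ligands that Six3 is known to repress, were not in the table. Ccnd1, cyclin D1, was at 967, 1171 and 501 CPM in Six3KO and 1345 and 637 CPM in Six6KO. Cdkn1b, the p27 inhibitor, was at 91.5, 94.0 and 66.4 against 94.6 and 63.2 CPM, a difference of 0.09 (interval -0.40 to 0.58). Cdkn1c, the p57 inhibitor, was at 149, 177 and 439 against 260 and 490 CPM, with the highest levels in rh026 and rh020. Shh was at 0.605 to 0.912 CPM in Six3KO, 2.32 and 0.642 CPM in Six6KO and 2.29 to 6.36 CPM in WT. Prox1 was at 38.0, 141 and 118 against 42.2 and 64.7 CPM, and it is also a lens gene.

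Markers of newly born retinal cells had mostly higher estimates in Six3KO in 3 lists, the ganglion cell, photoreceptor, and amacrine and horizontal cell genes. Neurogenic and Notch pathway genes had 12 of 25 higher and 13 lower and none at p under 0.05, with a median of -0.02. This split depended on single libraries: it was 5 higher and 20 lower without rh020 (median -0.30), 20 and 5 without rh026 (0.19) and 21 and 4 without rh007 (0.39). Atoh7, which commits progenitors to the ganglion cell fate, was at 129, 118 and 41.1 CPM in Six3KO and 127 and 105 CPM in Six6KO, and Neurog2 at 177, 185 and 65.7 against 161 and 108 CPM. Six3KO rh026 was the lowest of the 5 libraries in both.

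All 24 tested ganglion cell genes, of 26 listed, had a higher estimate in Six3KO, with a median of 0.33 against -0.01 over all genes. None of them had p under 0.05, and in none were the libraries apart. Relative to WT, the mean of the list was 0.15, 0.26 and -0.92 in the Six3KO libraries and -0.01 and -0.97 in the Six6KO libraries. Pou4f2, a ganglion cell transcription factor, was at 188, 188 and 62.1 against 183 and 89.5 CPM. Robo2, an axon guidance receptor, was at 229, 263 and 110 against 178 and 116 CPM. Without Six6KO rh020 the list split into 12 higher and 12 lower with a median of -0.01. The median was 0.17 without rh012, 0.18 without rh006, 0.64 without rh026 (6 members at p under 0.05) and 0.85 without rh007 (3 members). Without rh020 and rh026 together it was 0.25, with 21 higher and 3 lower. With mesenchyme level as a covariate the list had 15 higher and 9 lower with a median of 0.08. With lens level as a covariate all 24 were higher with a median of 0.57.

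Photoreceptor precursor genes gave the largest gap among retinal lists, with 10 of the 11 tested genes higher, of 18 listed, and a median of 0.60. Of these, 3 had p under 0.05 (1.66% of all genes did in this direction): Gnb3, Cdhr1 and Thrb. Gnb3, the cone transducin beta subunit, was at 3.22, 3.74 and 2.52 CPM in Six3KO and 1.04 and 1.28 CPM in Six6KO, with WT at 2.81 to 3.31 CPM. Both Six6KO libraries were below every WT and Six3KO library. Cdhr1, a cadherin of photoreceptor discs, was at 13, 20.3 and 5.35 against 4.76 and 3.85 CPM, with WT at 12.9 to 20.2 CPM. Thrb, the thyroid hormone receptor of cones, was at 67.0, 74.8 and 41.4 against 38.4 and 42.3 CPM, with WT at 72.3 to 97.9 CPM, and here rh026 overlapped Six6KO. Crx, the photoreceptor homeobox factor, was at 38.1, 43.3 and 11.8 against 16.2 and 9.41 CPM, and Prdm1 at 55.6, 76.7 and 17.5 against 28.5 and 12.1 CPM.

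The photoreceptor list's mean relative to WT was -0.06, 0.11 and -0.91 in the Six3KO libraries and -1.02 and -0.94 in the Six6KO libraries. Six3KO rh026 therefore stood beside the Six6KO libraries and the other pair beside WT. The median difference ran from 0.45 without Six3KO rh012 to 0.83 without Six6KO rh020, and was 1.2 without rh020 and rh026 together, with 11 of 11 higher and 5 at p under 0.05. The members with p under 0.05 numbered 7 without Six3KO rh026, 4 without Six6KO rh020, 1 without Six3KO rh012 and 0 without Six6KO rh007. In bulk tissue, fewer cells of a type and less RNA per cell cannot be told apart. Neurod4, a proneural factor, followed the same order at 52.6, 59.5 and 16.9 against 25.2 and 15.1 CPM, with WT at 44.1 to 78.2 CPM. Otx2, which acts above Crx, was at 88.7, 78.5 and 84.1 against 55.6 and 79.6 CPM, a difference of 0.31 (interval -0.04 to 0.66). It is also expressed in the pigment epithelium.

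Amacrine and horizontal cell genes were higher in 15 of 17, with a median of 0.21, none at p under 0.05 and 2 without overlap (6.69% of all genes). Gad2, which makes the transmitter GABA, was at 32.9, 55.6 and 30.3 CPM against 26.3 and 9.84 CPM. Six6KO rh020 was the lowest library, and without it the list had 10 higher and 7 lower with a median of 0.09. The median was 0.49 without rh026 and 0.71 without rh007. It was 0.12 with mesenchyme level as a covariate (11 higher, 6 lower) and 0.45 with lens level (14 higher, 3 lower). Foxn4, a progenitor factor for these cells, was at 164, 172 and 70.7 against 172 and 83.1 CPM.

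Genes that pattern the eye cup and its margin were split in direction. Of 24 ciliary margin genes, 10 were higher and 14 lower, and of 21 optic stalk and dorsoventral genes, 6 were higher and 15 lower, with none at p under 0.05 in either list. The ciliary margin median was -0.06 and ran from -0.28 without rh026 to 0.18 without rh012, and the optic stalk and dorsoventral median was -0.12 and ran from -0.16 without rh006 to -0.03 without rh026. Wfdc1, a secreted protein of the peripheral retina, was at 14.4, 21.2 and 20.1 against 17.8 and 45.1 CPM, and Rdh10, which makes retinal for retinoic acid synthesis, at 40.9, 45.6 and 63.0 against 64.3 and 73.8 CPM. Aldh1a1, the dorsal retinoic acid synthesizing enzyme, was at 551, 696 and 718 against 423 and 1696 CPM, so the Six6KO libraries lay on either side of Six3KO. The ventral factor Vax2 was at 30.4, 26.9 and 21.3 against 44.6 and 6.63 CPM, also on either side, while the dorsal factor Tbx5 was at 33.5, 27.8 and 17.8 against 23.8 and 28.6 CPM. Aldh1a1 was highest and Vax2 lowest in Six6KO rh020, and in Six6KO rh007 this order was turned.

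Of 24 Wnt ligands, antagonists and feedback genes, 11 were higher and 13 lower with none at p under 0.05. The median was -0.03, and ran from -0.60 without rh026 (6 higher, 18 lower) to 0.30 without rh012 (18 higher, 6 lower). Axin2, a feedback target of the pathway, was at 29.3, 17.5 and 69.1 CPM in Six3KO, 41.8 and 43.2 CPM in Six6KO and 10.2 to 68.3 CPM in WT. Wnt3a was under 2 CPM in all 5 libraries, and 5.47 to 10.1 CPM in DKO. Wnt7b was at 9.61, 32.5 and 48.8 against 7.08 and 22.8 CPM. These levels spread as widely within a group as between the groups.

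Of 20 FGF and MAPK feedback genes, 8 were higher and 12 lower, and 13 had an interval within 2 fold. The median was -0.01, and ran from -0.25 without rh020 to 0.28 without rh007. Fgfr3, an FGF receptor, had p under 0.05 with 14.8, 51.4 and 40.4 CPM in Six3KO and 10.9 and 19.8 CPM in Six6KO, and the libraries overlapped. The DKO libraries held 31.2 to 46.5 CPM and WT 10.3 to 19.0 CPM. The high Six3KO libraries, rh012 and rh026, were those with high summed lens gene levels, and the difference was -0.06 with both left out. Six6KO rh020 had a lens sum of 11835 CPM with Fgfr3 at 19.8 CPM. The DKO libraries had lens sums of 17.3, 220 and 10.1 CPM. With lens level as a covariate, 0 genes of this list had p under 0.05 in edgeR's quasi-likelihood test. The part of lens tissue in Fgfr3 was not tested further. Dusp6, a phosphatase induced by FGF signalling, was at 60.9, 62.5 and 53 against 70.2 and 73.7 CPM (-0.29 ± 0.18).

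Of 17 BMP and TGF-beta feedback genes, 5 were higher and 12 lower, and Grem1 and Bambi had p under 0.05 in the lower direction (2% of all genes). The median was -0.19, and ran from -0.34 without rh026 to -0.02 without rh020. Grem1, a secreted BMP antagonist, was at 1.64, 0.576 and 3.33 CPM in Six3KO and 9.28 and 6.53 CPM in Six6KO, with WT at 1.16 to 5.16 CPM. Both Six6KO libraries lay above all others. Bambi, a decoy receptor, was at 16.2, 15.3 and 15 against 15.5 and 36.6 CPM, which rests on Six6KO rh020.

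Hedgehog pathway genes were lower in 10 of 11, with none at p under 0.05. Gli1, a transcriptional target and effector of the pathway, was at 14.7, 28.3 and 21.4 CPM in Six3KO, 57.2 and 18.8 CPM in Six6KO and 34.9 to 110 CPM in WT. Six6KO rh007 was in the WT range and Six6KO rh020 within that of Six3KO. The median of these genes was -0.22, and ran from -0.50 without rh026 to 0.20 without rh007 (8 higher, 3 lower). It was -0.45 without rh020, -0.04 without rh012, and -0.83 without rh026 and rh020 together, with 11 of 11 lower and 3 at p under 0.05.

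Retinoic acid genes were lower in 16 of 17, with a median of -0.30 and 1 gene at p under 0.05 (2% of all genes). The median ran from -0.62 without rh026 (3 genes at p under 0.05) to -0.07 without rh012, and was -0.12 without rh020 and -0.50 without rh007. Stra6, the retinol transporter of the pigment epithelium, was at 75.6, 44.1 and 134 against 103 and 142 CPM. Summed pigment epithelium markers stood at 1392, 54.7 and 2625 CPM in Six3KO and 827 and 2773 CPM in Six6KO. They had the order of Stra6 within each group. Between the groups, Six6KO rh007 was above Six3KO rh006 for Stra6 and below it for these markers. Their part in the result was not tested.

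Most S phase and mitosis genes had lower estimates in Six3KO, by small amounts. In the S phase list 24 of 25 genes were lower with a median of -0.21, 3 had p under 0.05, and in 11 the libraries did not overlap (8.4% of all genes were apart in this direction). All 25 intervals lay within 2 fold. Cdc6, which loads the replicative helicase, was at 38.7, 39.7 and 34.0 CPM in Six3KO and 46.5 and 50.8 CPM in Six6KO, with WT at 44.3 to 51.3 CPM. Mcm5, a subunit of that helicase, was at 180, 174 and 152 against 216 and 205 CPM, with WT at 176 to 211 CPM. Tyms, thymidylate synthase, was at 71.8, 73.2 and 69.2 against 80.3 and 92.8 CPM, with WT at 84.5 to 91.9 CPM. Cdc6 and Tyms were below the WT range in every Six3KO library. Without Six3KO rh026 and Six6KO rh020 together, 19 of the 25 S phase genes were lower with a median of -0.09. The median of the list was -0.15 without Six6KO rh020, when none of its genes had p under 0.05, -0.11 without Six3KO rh026 and -0.26 without Six6KO rh007.

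In the mitosis list 21 of 25 were lower with a median of -0.10, 2 had p under 0.05 (2% of all genes), and in 5 the libraries did not overlap (8.4%). Bub3, a checkpoint protein, was at 96.8, 95.3 and 98.4 against 102 and 154 CPM, and Ccnb2, cyclin B2, at 56.3, 51.3 and 46.7 against 59.4 and 64.6 CPM. Without Six3KO rh026 the list had 10 higher and 15 lower with a median of -0.03, without rh020 the median was -0.05, and without rh006 it was -0.16. Without rh026 and rh020 together there were 12 higher and 13 lower. Mki67, the proliferation antigen, was at 1312, 1346 and 1038 against 1319 and 1062 CPM, a difference of 0.05 (interval -0.36 to 0.46). Of 11 cyclin D and inhibitor genes, 7 were higher and 4 lower with none at p under 0.05 and a median of 0.09, which ran from 0.02 without rh020 to 0.32 without rh007.

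**Figure D4:**
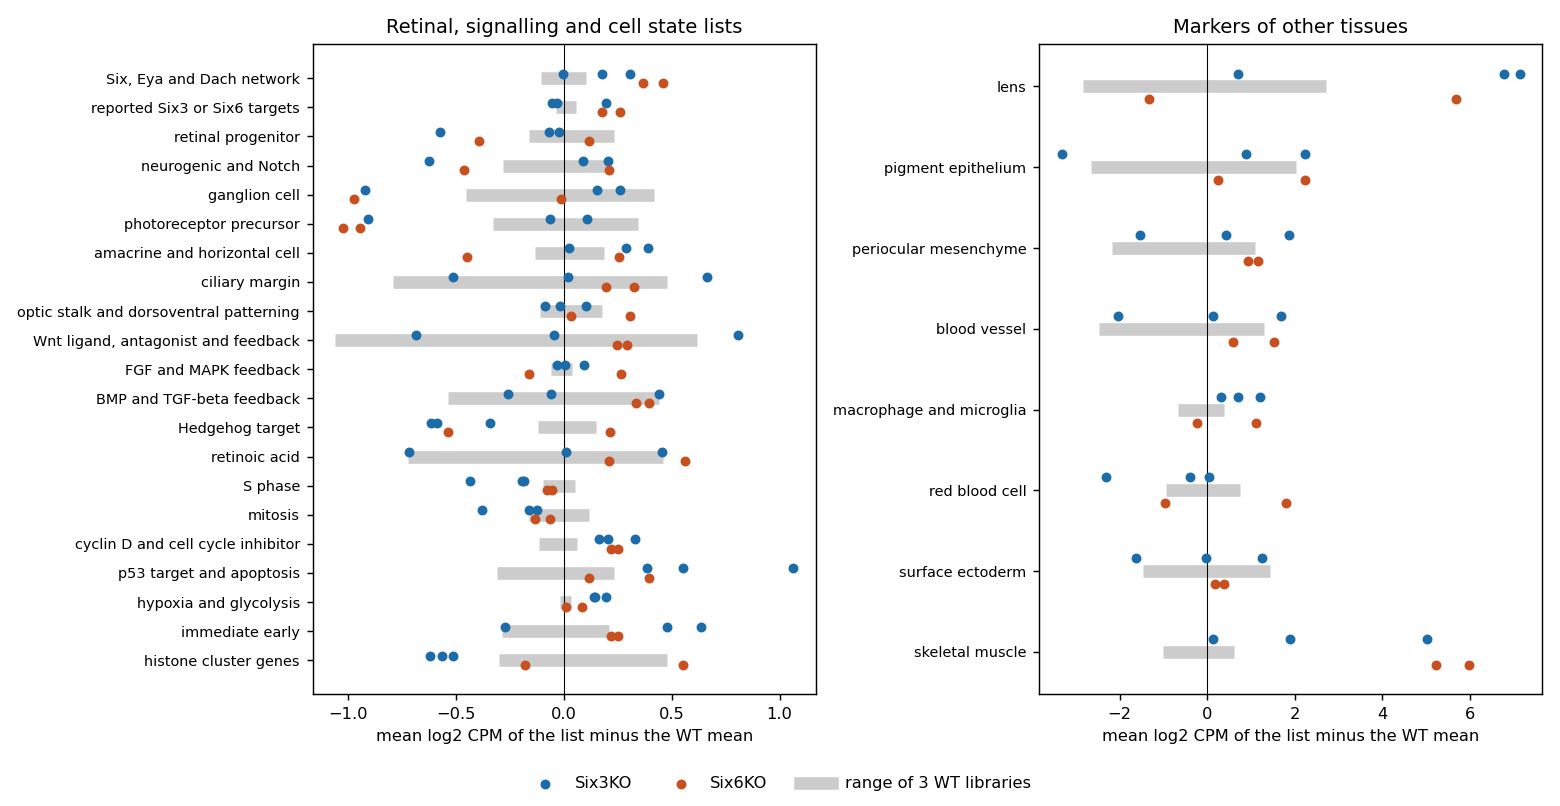
Mean log2 CPM of each list in each Six3KO and Six6KO library minus the WT mean (horizontal axis, log2 units), with the range of the 3 WT libraries as a grey bar, for retinal, signalling and cell state lists with the histone cluster genes (left) and markers of other tissues (right, wider scale). The photoreceptor list is low in both Six6KO libraries and in 1 Six3KO library, and the markers of other tissues spread over several log2 units within a group.

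Histone genes were the group of named kind with the most members on one side, and they were gathered into a list after Hist2h3b, Hist1h4k and Hist1h2bj had been seen among the closest genes, so the following is a description. Replication-dependent histone genes lie in clusters, are expressed in S phase, and make mRNAs that end in a conserved stem-loop in place of a poly(A) tail. They are read by total RNA libraries such as these and largely missed by poly(A) selection. The stem-loop was searched, as the histone stem-loop motif on the sense strand, in the last 150 bases of annotated GENCODE transcripts. The motif was found in 19 of the 13015 tested genes with 1 annotated match (0.146%), and 18 of these belong to the 56 tested histone cluster genes. The other was Wdr4, not a histone gene. The search did not require the arms to be complementary, and in Wdr4 they are not fully so. It could find the motif only where the annotated transcript reaches that far, so a histone gene without a match may still have it. The following 5 are shown so that the shared 16-base stem and loop can be seen, in capitals, with 5 bases on either side.
Hist1h2bj: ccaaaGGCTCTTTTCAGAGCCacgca
Hist1h3a: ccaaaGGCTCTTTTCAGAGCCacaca
Hist1h2ag: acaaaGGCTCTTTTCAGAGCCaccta
Hist1h4h: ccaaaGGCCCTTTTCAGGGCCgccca
Hist1h4b: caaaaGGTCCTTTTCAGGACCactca
The H2A, H2B and H3 genes shown share the same 16 bases, while both H4 genes differ within the stem, and in each the arms remain complementary around the same loop.

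Each of these genes stood lower in Six3KO than in either Six6KO library. Hist1h2bj, an H2B gene (chromosome 13, 22043214 to 22043676, plus strand), was at 106, 120 and 108 CPM in Six3KO, 155 and 216 CPM in Six6KO and 134 to 191 CPM in WT. Hist1h3a, an H3 gene, was at 112, 126 and 116 against 174 and 320 CPM, with WT at 163 to 294 CPM. Hist1h4h, an H4 gene, was at 216, 241 and 224 against 325 and 511 CPM, with WT at 301 to 422 CPM. In all 3 genes the Six3KO libraries were close together and below the WT range, and Six6KO rh020 was the highest of these libraries.

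Hist1h4k (chromosome 13, 21750194 to 21750505, minus strand) was at 160, 161 and 148 against 234 and 344 CPM, and Hist2h3b (chromosome 3, 96268654 to 96269141, plus strand) at 47.0, 44.7 and 55.0 against 105 and 193 CPM. Histone genes have near-identical copies between which reads may have been split, so the level of any 1 of them is uncertain.

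Of the 56 tested histone cluster genes, 56 had a lower estimate, 36 had p under 0.05 and in 49 the libraries did not overlap, against 51.8%, 2% and 8.4% of all genes in that direction. Their differences ran from -1.61 to -0.05 with a median of -0.78, and none passed the adjusted threshold in edgeR's quasi-likelihood test. DESeq2 called 1 of them, Hist1h2al, which is annotated as a processed pseudogene. The list's mean relative to WT was -0.51, -0.56 and -0.62 in Six3KO and -0.18 and 0.55 in Six6KO. It was 0.48, -0.18 and -0.30 in the WT libraries and -0.52, -0.63 and -0.07 in DKO. Six6KO rh020 and WT rh016 thus stood high and the Six3KO libraries low, with Six6KO rh007 inside the WT range. Without rh020 the median was -0.37, with 52 genes lower and 3 at p under 0.05, and without rh007 it was -1.07 with 49 at p under 0.05. The 19 genes with a match to the stem-loop motif, which include Wdr4 at -0.16, gave a median of -0.79, and -0.43 without rh020.

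Histone genes outside the clusters, whose mRNAs are mostly polyadenylated, had lower estimates in 11 of 11, with a median of -0.17. Without rh020 they were 4 higher and 7 lower with a median of -0.05, and without rh026 3 higher and 8 lower with a median of -0.10. H2afx, the variant phosphorylated at DNA breaks, was at 234, 243 and 199 against 307 and 305 CPM, with WT at 274 to 302 CPM. H3f3b was at 533, 506 and 465 against 497 and 539 CPM. The difference between the lists was not tested.

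**Figure D5:**
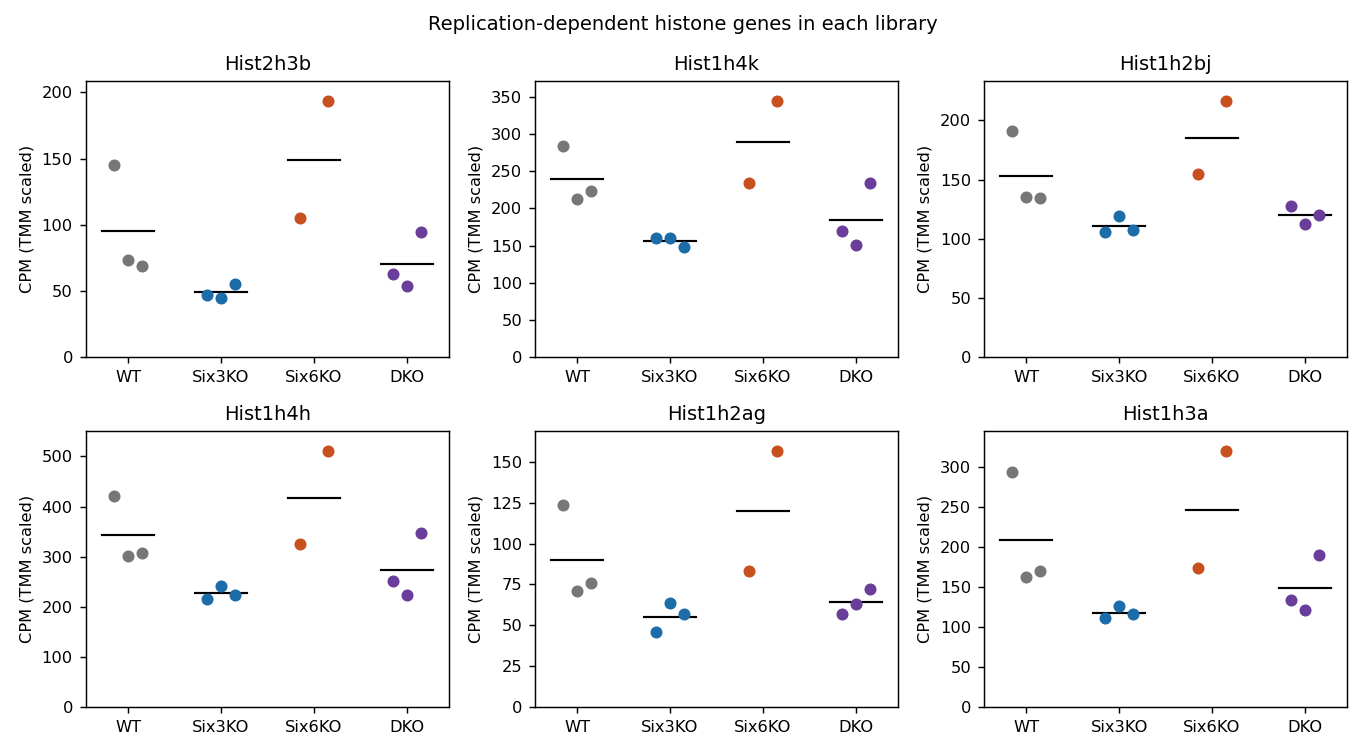
Level of 6 replication-dependent histone genes in CPM (TMM scaled, linear axes from 0) in each library of the 4 groups, with a line at the group mean. In each gene the 3 Six3KO libraries lie close together and below both Six6KO libraries, of which 1 is far above the other.

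Differences also ran with gene length, most widely in Six6KO rh020. Genes spanning under 3 kb had a median difference of -0.17 and were higher in 30.6%, and the median passed through -0.10, -0.04, 0.03 and 0.09 in the next bins to 0.16 over 300 kb, where 74.8% were higher. In Six6KO rh020 the median of the shortest bin was 0.31 above the WT mean and that of the longest bin -0.13 below it. In Six6KO rh007 these were 0.01 and -0.01, in WT rh016 0.14 and -0.05, and in WT rh023 -0.06 and 0.10. In Six3KO rh006, rh012 and rh026 the shortest bin was at -0.01, -0.03 and -0.01. Their longest bin was at 0.08, 0.11 and 0.01. Histone cluster genes are short and Anks1b, Dgki, Dlg2 and Unc5c are long, and the part of length in their differences was not tested.

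Genes of the p53 response, which are induced by DNA damage and other stress and include mediators of apoptosis, had mostly higher estimates in Six3KO. Of 20 genes, 16 were higher and 4 lower with a median of 0.33, 3 had p under 0.05 (1.66% of all genes), and in 7 the libraries stood apart and higher in Six3KO (6.69% of all genes). Relative to WT, the list's mean was 0.55, 0.38 and 1.06 in the Six3KO libraries and 0.12 and 0.39 in the Six6KO libraries. Eda2r, a death receptor of the TNF family, was at 13.6, 16 and 24.0 CPM in Six3KO, 1.51 and 5.03 CPM in Six6KO and 2.31 to 3.13 CPM in WT. It was at 16, 22.3 and 3.73 CPM in DKO, so 2 of the 3 DKO libraries were in the Six3KO range. Pmaip1, the BH3-only protein Noxa, was at 4.99, 3.84 and 7.97 against 0.464 and 2.14 CPM, with WT at 0.925 to 2.27 CPM. Zmat3 was at 104, 103 and 123 against 92.5 and 56.9 CPM, with WT at 64.1 to 82.1 CPM. Every Six3KO library was above every WT and Six6KO library in these 3 genes. The median of the list was 0.12 without Six3KO rh026, the library with the highest level of all 3, and 0.46 without rh012. The members at p under 0.05 numbered 1 without rh026 or rh007 and 5 without rh012.

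Cdkn1a, the p21 inhibitor, was at 16.7, 17.9 and 36.9 CPM in Six3KO, 11.7 and 16.2 CPM in Six6KO and 1.56 to 3.12 CPM in WT. Both single mutants were thus above WT, and the difference between them was 0.77 (interval -0.84 to 2.38). Ccng1 was at 105, 113 and 177 against 55.1 and 92.0 CPM. Other members differed little: Mdm2, which targets p53 for degradation, was at 92.8, 104 and 90.1 against 91.9 and 88.3 CPM, and Bbc3, the BH3-only protein Puma, at 9.55, 9.98 and 9.18 against 11.6 and 7.38 CPM.

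In the hypoxia and glycolysis list 12 of 18 genes were higher and 6 lower, with a median of 0.16, which ran from 0.02 without rh026 to 0.18 without rh020. Pgk1, a glycolytic kinase, was the 1 with p under 0.05 (2% of all genes were lower at that p), at 28.9, 34.9 and 27.7 against 35.5 and 45.6 CPM. Immediate early genes, which respond within minutes to stimulation or dissection, were mixed, with 8 of 13 higher and a median of 0.06, which ran from -0.08 without rh026 to 0.15 without rh007. Fos was at 8.52, 5.57 and 2.52 against 0.580 and 1.07 CPM, with WT at 0.637 to 5.43 CPM. Jund was at 126, 130 and 105 against 181 and 143 CPM, and Ier2 at 24.5, 17.9 and 17.1 against 28 and 24.9 CPM. Fos and the other pair thus stood on opposite sides.

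Markers of tissues around the retina varied from library to library in both groups. All 21 lens genes had a higher estimate in Six3KO with a median of 1.58, and their summed level was 294, 27345 and 21816 CPM in Six3KO, 52.4 and 11835 CPM in Six6KO and 29.1 to 1534 CPM in WT. The high libraries were Six3KO rh012 and rh026 and Six6KO rh020, so both groups held low and high libraries. The median was 0.63 without rh007, 8.93 without rh020 and -4.38 without rh012 and rh026 together. Bfsp1, a lens fibre filament protein, had p under 0.05 at 2.43, 111 and 58.0 against 2.78 and 12.5 CPM. Its difference was -1.65 without rh012 and rh026.

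Skeletal muscle markers were lower in Six3KO in 14 of 14 genes with a median of -2.06, and in 9 the libraries did not overlap (8.4% of all genes). The median ran from -4.35 without Six3KO rh026 to -1.46 without rh012. Their sum was 87.2, 12.1 and 644 CPM in Six3KO, 884 and 1337 CPM in Six6KO and 5.73 to 19.3 CPM in WT. Actc1, cardiac actin of embryonic muscle, was at 12.2, 2.50 and 116 against 154 and 422 CPM. Myog, the factor that defines differentiating muscle, was at 1.52, 0.672 and 17.8 against 17.5 and 40.5 CPM. Red blood cell genes were lower in 6 of 6 tested, of 14 listed, with Hbb-bh1 at 12.1, 2.30 and 13.6 against 7.66 and 197 CPM and Hba-x at 126, 30.4 and 133 against 94.0 and 796 CPM. Both globins were high in rh020 and not in rh007, and without rh020 6 of 6 were higher.

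The periocular mesenchyme list was lower in 16 of 25 (25 of 25 without rh026, 6 of 25 without rh012), with sums of 2306, 1013 and 6454 CPM against 4089 and 2964 CPM. Pigment epithelium genes were lower in 11 of 12, blood vessel genes in 11 of 13 and surface ectoderm genes in 7 of 19, while macrophage and microglia genes were higher in 10 of 13. Single libraries turned these directions. Pigment epithelium genes were higher in 12 of 12 without rh020 and in 9 of 12 without rh012, blood vessel genes in 8 of 13 without rh012 and 7 of 13 without rh020, and surface ectoderm genes in 0 of 19 without rh026. Macrophage and microglia genes were lower in 10 of 13 without rh007. Cx3cr1, the microglial chemokine receptor, was at 13.6, 15 and 15.2 against 8.47 and 8.34 CPM, with WT at 6.82 to 15.7 CPM. Six3KO rh026 and Six6KO rh020, which were low for ganglion cell and progenitor genes, were high for lens, pigment epithelium and muscle. High lens and muscle levels were not particular to them. The lens sum was highest in Six3KO rh012, whose ganglion cell mean was 0.26 relative to WT. The muscle sum was higher in Six6KO rh007, whose ganglion cell mean was -0.01, than in Six3KO rh026. With mesenchyme level as a covariate in edgeR's fit, the ganglion cell median was 0.08 and the retinal progenitor median -0.21. With lens level as a covariate they were 0.57 and 0.07. The photoreceptor median was 0.43 with mesenchyme level and 0.60 with lens level. Muscle and pigment epithelium levels were not fitted, and the part of these tissues in the retinal differences was not tested further.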

How the data were processed

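RNA was sequenced from pairs of embryonic retinas after ribosomal RNA depletion (KAPA RNA HyperPrep with RiboErase, per the labels' protocols). The authors deposited raw read counts per gene symbol for 11 libraries. Per the submitters' processing notes, the tools were Trim Galore 0.3.7, TopHat2 2.0.13, HTSeq 0.6.1, Cufflinks 2.2.1 and Cuffdiff, with build mm10. Not given in the sources used here are the annotation, the strand setting and the rule by which the 13498 genes were kept. Column names gave each library its group.

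Genes were kept by edgeR's filterByExpr (minimum count 10), which left 13292. Counts were scaled by TMM and fitted over all 4 groups with edgeR 4.0.16 (R 4.3.3), glmQLFit and glmQLFTest, with no covariate, and p-values were adjusted over all tested genes by Benjamini-Hochberg, with a threshold of 0.05. SEs and 95% intervals derive from the quasi-likelihood F. The script was tested on simulated data. P-values measure the spread between these libraries, and the interval on the Esr1 read ratio covers counting error only. Named genes were Six3, Six6, Six3os1 and Esr1; up to 10 per direction with at least 5 CPM and no overlap, called or else with the smallest p, leaving out pseudogenes and predicted, mitochondrial and small RNA genes; and up to 3 members of each biology list and 2 of each marker list with the smallest p. Other list members, the histone lists, the ratios and the length bins were chosen after values were seen. The members and lists were chosen with earlier results of these data known. Positions, spans and transcript ends come from GENCODE vM21 (GRCm38, the assembly of mm10), in which 13015 tested symbols (97.9%) matched 1 gene. Alternatives were other scalings, no filter, DESeq2 1.42.0, the 5 libraries alone, libraries left out, and lens or mesenchyme level as a covariate. Some named genes are not reported here.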

Additional observations from a re-analysis of the deposited data

How the results depend on the processing

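Of 1756 values for the 88 named genes under 20 alternatives, 1727 kept their direction and their side of the threshold. Another 27 turned, in 19 genes, and 2 passed the threshold, both for Rpl21. Esr1 alone passed in the main fit, so the other named genes could change side only by a new call. Several alternatives removed no Six3KO or Six6KO library, so the number that stayed the same is no measure of robustness. With Six3KO rh026 and Six6KO rh020 left out, 2 genes were called (Esr1 and Rpl21) and Wfdc1 turned to 0.014, Msx1 to -0.38, Aldh1a1 to 0.58, Cyp26a1 to 0.19, Bambi to 0.035, Fcer1g to 0.075 and Grhl2 to -0.071. With Six3KO rh012 and rh026 left out, 243 genes had p under 0.05 and Prox1 turned to -0.49, Msx1 to -1.15, Wnt7b to -0.64, Wnt5b to -0.54, Fgfr3 to -0.055, Bfsp1 to -1.65 and Crygf to -3.41. Leaving out each library in turn, the difference turned in 13 genes. It ran from -0.34 to 1.82 for Msx1, -0.056 to 0.58 for Wnt5b and -0.37 to 1.27 for Grhl2, turning without rh026, and from -1.55 to 0.26 for Shh, turning without rh007. Turning without rh020, it ran from -1.20 to 0.023 for Cdkn1c, -1.27 to 0.098 for Wfdc1, -1.36 to 0.67 for Aldh1a1, -1.23 to 0.032 for Bambi, -2.21 to 0.96 for Rlbp1, -1.68 to 0.18 for Slc45a2, -1.72 to 0.41 for Fcer1g, -4.37 to 0.33 for Hbb-bh1 and -3.03 to 0.077 for Hba-x. The cause was not tested. The 5 libraries alone, with 3 residual degrees of freedom against 7, gave 269 genes with p under 0.05. Leaving out each of the 11 libraries in turn, that number ran from 260 to 1735, and the number called from 1 to 2, the other being Rpl21 without rh020 and Hist1h2al without WT rh023. DESeq2 called 2, Esr1 and Hist1h2al. Where 1 library remained in a group, it was assumed to vary like the rest. Intervals are widest for genes under 5 CPM. No paired analysis was possible because the columns carry no replicate numbers.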

Other observations

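Capn11, which encodes a calpain protease, had 302 reads in Six3KO and 0 in Six6KO, at least 49.2-fold higher against a floor of 3 reads over the Six6KO group (counting error only). Of these reads 277 were in rh006, 16 in rh012 and 9 in rh026, so the excess over WT, where the libraries held 1, 5 and 0 reads, lay mainly in 1 library. The gene was singled out after its values were seen. Hist1h2al, annotated as a processed pseudogene and therefore outside the rule for named genes, had a difference of -1.51.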
